A study of Mus musculus with 2 samples.

Results

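Ephrins and Eph receptors were examined in mouse 3T3 fibroblasts as 10 named genes: the ligands Efna1, Efna2, Efnb1 and Efnb2 and the receptors Epha2, Epha3, Ephb2, Ephb3, Ephb4 and Ephb6. Members were taken as every probe set that the platform annotation of the MG_U74Av2 array assigns to exactly 1 of these genes. This gave 9 probe sets for 8 of the 10 genes, out of 8251 genes named on the array. The annotation used here names no probe set for Ephb2 and Ephb4, so these receptors were not analysed here. Whether a probe set annotated to another gene detects them was not tested. The 10 genes were picked from a larger family with results of these arrays known, so their ratios are a description of these samples and carry no test.

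One group of cells was plated for 30 min on fibronectin at 10 µg/ml, and the other was held in suspension. Fibroblasts hold on to fibronectin, a matrix protein, through integrins. Both groups were 3T3 cells, an immortalised fibroblast line made from mouse embryos, in DMEM without serum, and total RNA of each group was hybridised to 1 Affymetrix array. The labels give the purpose as finding genes induced by fibronectin and following the MAPK pathway. The sources used here do not say how long the cells stayed in suspension, or whether both groups came from 1 culture.

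Ephs are the largest family of receptor tyrosine kinases, and their ligands, the ephrins, stay attached to the surface of the neighbouring cell. A-type ephrins hang on a glycolipid (GPI) anchor and bind mainly EphA receptors. B-type ephrins cross the membrane and bind mainly EphB receptors. Contact sends a forward signal into the receptor cell and a reverse signal into the ligand cell, and both act on the actin cytoskeleton and integrin adhesion. In fibroblasts these signals are known for repulsion on cell contact, and in the embryo they sort cells, guide axons and shape blood vessels.

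The DNA upstream of the ephrin and Eph genes with the largest ratios is shown first, since these 4 genes carry most of the differences described below. Each line holds the 250 bases before an annotated transcription start, 5′ to 3′ on the gene's own strand, from RefSeq on the mouse build GRCm38.p6. Efna1 has 2 annotated starts. Capitals mark matches on either strand to 6 short motifs: the GC box (GGGCGG), the CCAAT box (CCAAT), the TATA box (TATAAA), the AP-1 site (TGANTCA), the CRE core (TGACGT) and the ETS core (CCGGAA). Where matches overlap, as in the Epha2 window, the capitals run together.
Efna1 upstream start, chr3:89280952-89281201, minus strand: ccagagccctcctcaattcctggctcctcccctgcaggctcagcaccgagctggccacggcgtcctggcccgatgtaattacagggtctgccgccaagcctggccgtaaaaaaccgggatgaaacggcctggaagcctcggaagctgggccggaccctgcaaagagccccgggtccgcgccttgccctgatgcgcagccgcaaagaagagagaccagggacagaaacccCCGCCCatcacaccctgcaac
Efna1 downstream start, chr3:89279646-89279895, minus strand: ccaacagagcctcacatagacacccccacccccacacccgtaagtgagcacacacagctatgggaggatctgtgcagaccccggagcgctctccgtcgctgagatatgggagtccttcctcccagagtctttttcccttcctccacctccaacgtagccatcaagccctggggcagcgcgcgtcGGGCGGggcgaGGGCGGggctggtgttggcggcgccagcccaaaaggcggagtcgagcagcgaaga
Efnb2 promoter, chr8:8661243-8661492, minus strand: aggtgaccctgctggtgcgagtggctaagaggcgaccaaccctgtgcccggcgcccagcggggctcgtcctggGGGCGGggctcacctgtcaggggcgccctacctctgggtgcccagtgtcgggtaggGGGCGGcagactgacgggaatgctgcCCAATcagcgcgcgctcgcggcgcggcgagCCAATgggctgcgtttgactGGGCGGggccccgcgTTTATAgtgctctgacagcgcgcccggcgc
Epha2 promoter, chr4:141300971-141301220, plus strand: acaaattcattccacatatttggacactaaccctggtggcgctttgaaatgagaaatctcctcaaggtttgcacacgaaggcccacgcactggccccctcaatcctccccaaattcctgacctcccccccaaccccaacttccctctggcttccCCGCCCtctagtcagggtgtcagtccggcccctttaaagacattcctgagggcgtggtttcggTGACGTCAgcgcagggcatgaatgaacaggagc
Epha4 promoter, chr1:77515089-77515338, minus strand: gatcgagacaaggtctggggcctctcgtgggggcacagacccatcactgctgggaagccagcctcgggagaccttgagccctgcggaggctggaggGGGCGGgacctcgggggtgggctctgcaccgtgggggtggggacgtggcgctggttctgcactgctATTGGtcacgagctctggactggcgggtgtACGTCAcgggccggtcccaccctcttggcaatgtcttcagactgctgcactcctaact

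All 10 members matched the promoter table, with 11 windows. GC boxes stood in 8 of these 11 windows, against 32.7% of all 32851 windows of the same length. Over the whole family they stood in 19 of 24 windows, or 79.2%, so this was not particular to the members. The GC content of these windows was not compared with that of all windows. The CCAAT box was found in 4 of the 11, against 33.8% of all windows. Only Efnb2 among the members had a TATA box, which 12.4% of all windows hold. No member window had an AP-1 site, which 6.75% of all windows hold. The ETS core stood in 2 of the 11, those of Ephb2 and Ephb6, against 12.0% of all windows. The CRE core stood in 1 of the 11, that of Epha2, against 6.47% of all windows. Over the whole family, in which 21 of 22 genes matched (all but Efnb3), it stood in 2 of 24 windows, those of Epha2 and Epha4, or 8.33%, near the share of all windows. The motifs were chosen with the ratios known, and a match describes letters, not binding.

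Signals are the authors' MAS5 intensities, 1 per probe set, after scaling both arrays to the same trimmed mean. Signals below a common floor of 490 were set to it before the log2 ratio was taken, fibronectin minus suspension. Where 1 of the arrays lay below that floor, the ratio is only a lower limit on the difference, called a bound, and the fold is given with "at least". Genes under the floor on both arrays were counted as not measured, which left 6385. As a further gauge of background, 15 antisense control probe sets, which should find no transcript, had a 95th percentile of 2279 on the fibronectin array and 1437 on the suspension array, so the floor lies within their range. Each group had 1 array, so no ratio below has a replicate check. The series' design text speaks of 2 replicates, and how these relate to the arrays analysed here is not stated. The arrays also differed in chip lot, scan day, fluidics module and operator, and these and the group cannot be told apart.

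The error of a ratio could only be gauged within the arrays. Over 1146 genes with at least 2 measured probe sets, the SD of a single log2 ratio, from the difference between the brightest pair, was 0.69. Of 174 such genes that were at least 2-fold different in the brightest probe set, 34.5% had the opposite sign in the next. A ratio that rests on 1 probe set, as for all measured members except Ephb6, therefore has this uncertainty beside any spread between cultures.

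**Figure D1:**
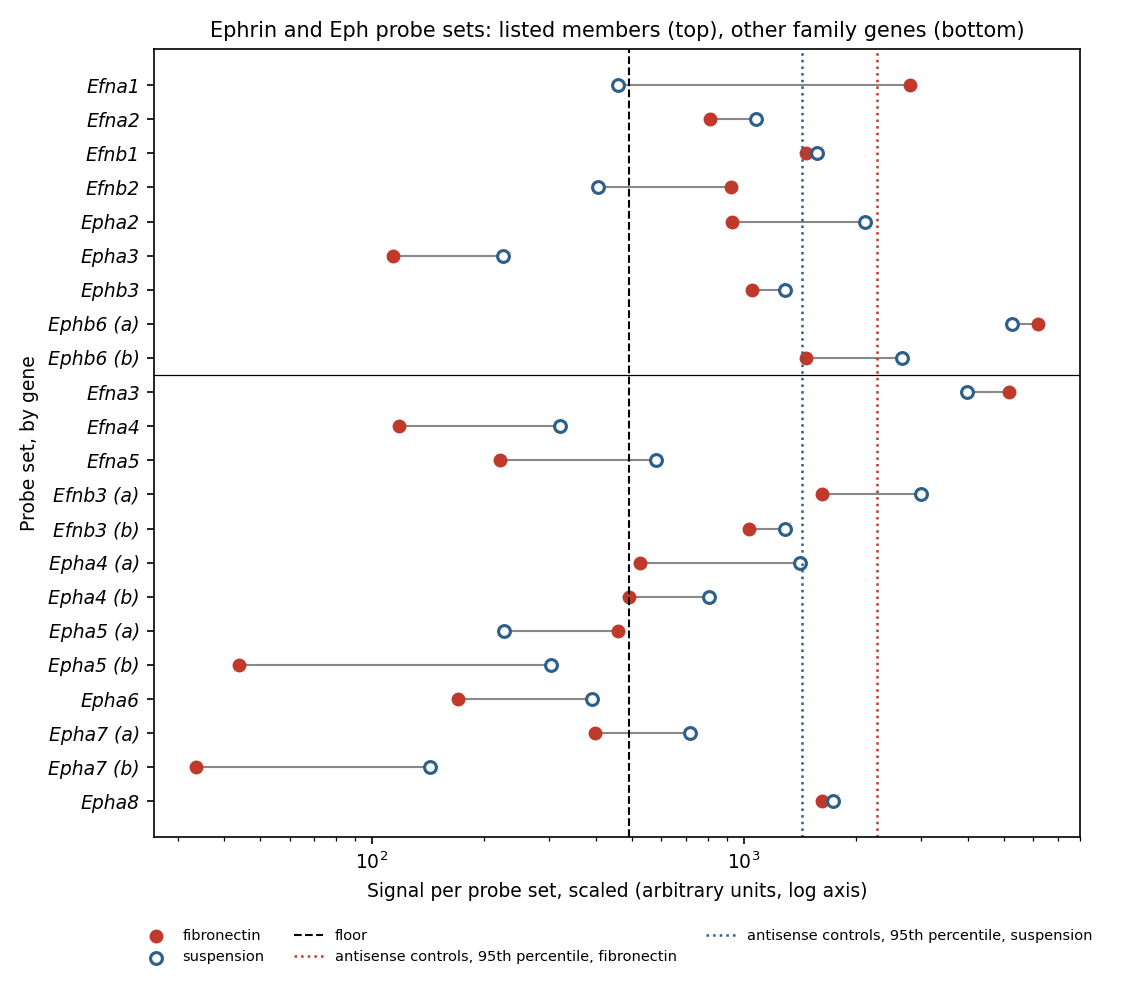
Scaled signal (log axis, arbitrary units) of each ephrin and Eph probe set on the fibronectin array (filled) and the suspension array (open), with the 9 member probe sets above the line and other family genes under it. (a) is the probe set that stands for a gene and (b) its other one. The dashed line is the floor of 490 and the dotted lines are the 95th percentiles of the antisense controls, 2279 on fibronectin and 1437 in suspension. Efna1 spans the widest range of the members, from below the floor to 2806.

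Among the ligands, Efna1, a GPI-anchored ephrin that binds EphA2 and other EphA receptors and was first found as a gene induced by tumour necrosis factor in endothelial cells, differed the most. Its probe set had a signal of 2806 on fibronectin, against 458 in suspension. The fibronectin signal lay above the highest antisense control of that array, 2527, and the suspension signal lay below the floor, so that only a bound can be given. Efna1 was at least 5.73-fold higher on fibronectin (log2 ratio 2.52, or 2.61 with no floor). In the order of ratios and bounds over all measured genes it took place 9 from the top. Its log2 ratio was above 0 under all 12 alternatives and above 1 under 11 of them. With the floor raised to the level of the antisense controls it was 0.59. As Efna1 has a single probe set, the probe set choices could not change its ratio. A common floor or offset can shrink a ratio but cannot turn its sign, so only the scalings could have done so.

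Efnb2 is a transmembrane ligand known as a marker of arterial endothelium and for its binding to EphB4. Its signal was 923 on fibronectin, against 406 in suspension. This made it at least 1.88-fold higher on fibronectin, or 2.28-fold with no floor, with the suspension array below the floor. Both signals lay within the range of the antisense controls, so the size of this ratio is uncertain. Its log2 ratio exceeded 1 under 5 of the 10 alternatives in which it was measured. The lowest value was 0.64, with the arrays scaled to the hybridisation spikes. As Efnb2 has a single probe set, the probe set choices could not change its ratio.

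The other 2 member ligands differed little. Efnb1, a transmembrane ligand encoded on the X chromosome whose loss in humans causes craniofrontonasal syndrome, had signals of 1467 on fibronectin and 1571 in suspension, a log2 ratio of -0.10. Its sign was not settled: it was positive under median scaling (0.11), quantile normalization (0.04) and loess (0.05). Efna2, a GPI-anchored ligand that helps to map visual axons in the mouse brain, had 812 on fibronectin and 1079 in suspension, a log2 ratio of -0.41. Both of its signals lay below the 95th percentile of the antisense controls. Differences of this size are smaller than the SD between probe sets of 1 gene.

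Of the member receptors, Epha2 had the largest ratio. EphA2 is the main receptor of ephrin-A1 in many cell types, is expressed widely in epithelia and in dividing cells, and is turned over after ligand binding. Its probe set had a signal of 931 on fibronectin, against 2119 in suspension, and the suspension signal lay above the antisense controls there while the fibronectin signal lay among them. Epha2 was 2.28-fold lower on fibronectin (log2 ratio -1.19), with both arrays above the floor. Of the 4805 genes that reached the floor in both arrays, 3.68% had a lower ratio. It remained below 0 under all 12 alternatives and below -1 under 9 of them. The log2 ratio was -0.98 under median scaling, -0.88 with an offset in place of the floor and -0.19 with the floor at the antisense controls. Epha2 also has a single probe set, so the probe set choices could not change its ratio, and only the scalings could have turned its sign. The ligand Efna1 and its receptor Epha2 thus differed in opposite directions between these arrays. The arrays measured RNA and not protein, and a link between the 2 ratios was not tested.

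The EphB receptors on the array showed smaller ratios. Ephb3, a receptor known from the intestinal crypt and from midline axon crossing, had signals of 1051 on fibronectin and 1290 in suspension, a log2 ratio of -0.30, both within the range of the antisense controls. Ephb6 is unusual in the family because its kinase domain is catalytically inactive. It was the only member above the 95th percentile of the antisense controls on both arrays, with 6170 on fibronectin and 5276 in suspension in its brighter probe set (log2 ratio 0.23). Its second probe set had 1470 on fibronectin and 2668 in suspension, a log2 ratio of -0.86, so the direction of Ephb6 differed between its probe sets. The brighter probe set also turned negative, to -0.25, with scaling to the hybridisation spikes. Epha3, a receptor for A-type ephrins known from axon guidance and heart development, had 114 on fibronectin and 225 in suspension. Both lie below the floor, and no ratio is given.

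In all, 7 of the 8 members with a probe set were measured, 5 of them in both arrays. At 2-fold, 1 of the 7 was higher on fibronectin (Efna1), where 5.79% of all measured genes were, and 1 was lower (Epha2), where 9.27% were. At 1.5-fold, 2 were higher (Efna1 and Efnb2), beside 15.9% of all measured genes, and 1 was lower, beside 22.6%. At 3-fold, 1 was higher (Efna1), beside 1.38%, and 0 were lower, beside 1.88%. The members were chosen with these ratios known, so nothing is read from the counts. The median log2 ratio of the 7 was -0.10, and that of all measured genes was -0.09. Of the 7 ratios 3 were above 0 and 4 below, while of all 6385 measured genes 2870 were above 0 and 3515 below. The signs of Efnb1 and Ephb6 changed with the scaling, so this split is not fixed.

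**Figure D2:**
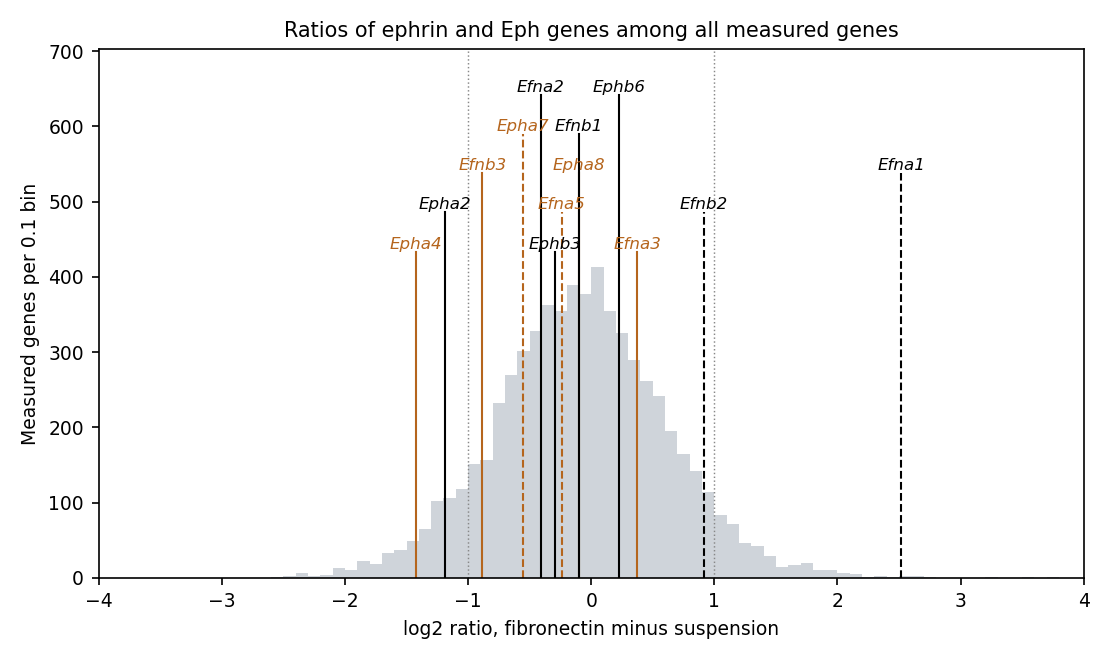
Histogram of the log2 ratio (fibronectin minus suspension) of 6385 measured genes in bins of 0.1, with lines for the ephrin and Eph genes measured: members in black and other family genes in brown, dashed where 1 array lay below the floor. Line height carries no value, and the dotted lines mark 2-fold. Efna1, at 2.52, stands at the upper end, Epha2 and Epha4 lie below -1, and the rest lie between. The line of Epha8 is hidden by that of Efnb1, as both are at -0.10.

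**Figure D3:**
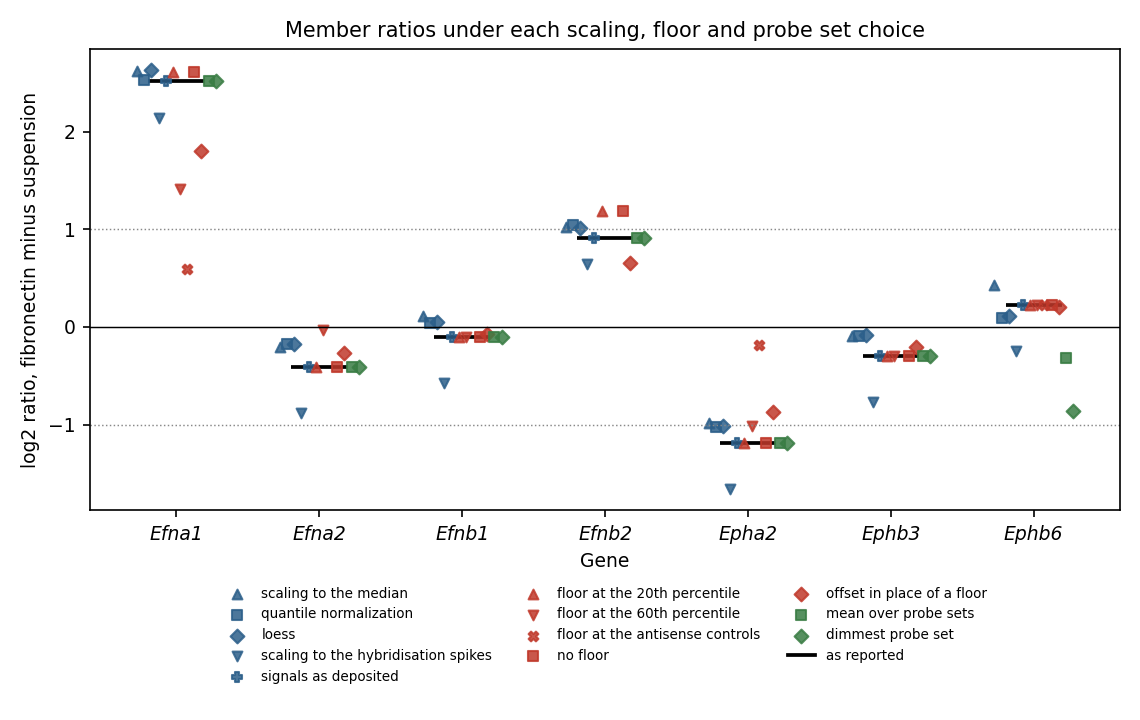
Log2 ratio (fibronectin minus suspension) of each member as reported (black bar) and under 12 alternative choices of scaling (blue), floor (red) and probe set (green). Epha3 was below the floor on both arrays and has no ratio to show. Efna1 lies above 0 and Epha2 below 0 throughout, while Efnb1 and Ephb6 cross 0. The floor choices cannot turn a sign, and the probe set choices can change only Ephb6.

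The rest of the family, 12 genes not among the members, gives the setting. Of these, 9 had a probe set and 6 were measured, and 1 of the 6 was at least 2-fold different. That was Epha4, a receptor that binds both ephrin classes and is best known from motor axon guidance, with 527 on fibronectin and 1416 in suspension. It was 2.69-fold lower on fibronectin (log2 ratio -1.43) and 1.64-fold lower in its second probe set. In both probe sets its signals lay below the 95th percentile of the antisense controls. Efnb3, a ligand known from the spinal cord midline, was 1.85-fold lower in 1 probe set (1618 on fibronectin, 2986 in suspension) and 1.25-fold lower in the other. Efna3 had 5174 on fibronectin and 3989 in suspension, both above the antisense controls. Its log2 ratio was 0.38, but -0.10 when the arrays were scaled to the spikes.

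Epha8 had 1624 on fibronectin and 1741 in suspension, a log2 ratio of -0.10, which was positive under median scaling (0.11). Epha7 was at least 1.47-fold lower in its brighter probe set, with 398 on fibronectin and 718 in suspension. Its other probe set lay below the floor on both arrays. Efna5 was at least 1.18-fold lower, with 221 on fibronectin and 579 in suspension. The signals of Epha7 and Efna5 lay below the 95th percentiles of the antisense controls on both arrays. Efna4, Epha5 and Epha6 lay below the floor in both arrays. Epha1, Epha10 and Ephb1 have no probe set named in the annotation used here. Over the whole family, 13 genes were measured, 4 with a ratio above 0 and 9 below, while of all 6385 measured genes 2870 were above 0 and 3515 below. Of the 7 measured ligands 3 were above 0, with a median of -0.10, and of the 6 measured receptors 1 was above 0, with a median of -0.42. All 4 measured EphA receptors were below 0, with a median of -0.87. Epha8 kept its sign under 8 of the 11 alternatives in which it was measured, so this direction did not hold for all of them.

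Efna1, Efna3 and Efna4 lie next to each other on chromosome 3, with promoter windows within 58.6 kb. Efna3 had a log2 ratio of 0.38, against at least 2.52 for Efna1, and Efna4 was below the floor on both arrays and has no ratio. The protein-coding genes beside this cluster with a measured probe set were Krtcap2, Dpm3, Slc50a1 and Adam15, with log2 ratios of 0.18, 0.04, 0.19 and 0.08. The neighbours were looked up after the ratio of Efna1 was known.

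Genes that carry Eph and ephrin signals were described from 4 lists of 74 genes, of which 57 had a probe set and 47 were measured. In total 3 were at least 2-fold higher on fibronectin, beside 5.79% of all measured genes, and 2 were at least 2-fold lower, beside 9.27%. The median log2 ratio of the 47 was 0.17, against -0.09 over all measured genes, and it was -0.27 with scaling to the spikes, where that of all measured genes was -0.51. With the floor at the antisense controls, 23 partners were measured, and their median was -0.20, where that of all measured genes was 0.001. The partner median thus lay above that of all measured genes in the main setting and below it with this floor. Single genes are described for 3 of the lists. Many genes of these lists also serve integrins and growth factor receptors, so they are not particular to Eph signalling.

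None of the 20 measured kinases and adaptors was at least 2-fold different in the probe set used. Of the 20, 13 were above 0 and 7 below, while of all 6385 measured genes 2870 were above 0 and 3515 below. The Src-family kinases, which carry both forward and reverse signals, differed in sign. Src was at least 1.97-fold lower on fibronectin, with 306 on fibronectin and 963 in suspension, while Yes1 was 1.95-fold higher, with 1051 on fibronectin and 539 in suspension. Fyn was 1.66-fold higher, with 1694 on fibronectin and 1023 in suspension. Src, Yes1 and Fyn all lay below the 95th percentiles of the antisense controls. The adaptor gene Shc1 had a log2 ratio of -0.20 in its brightest probe set and was at least 5.53-fold higher in its other one.

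Of 8 phosphatases 5 were measured. Acp1, a low molecular weight phosphatase that acts on EphA2, was 2.33-fold lower in the brightest of its 6 probe sets, while the log2 ratios of the others ran from -0.64 to 1.64, so its direction was not settled. Of the 12 measured proteases and binding partners, 7 had a ratio above 0 and 5 below. Of all 6385 measured genes, fewer were above 0 (2870) than below (3515). Psen2 is a subunit of the gamma-secretase that cuts ephrin-B ligands and Eph receptors. It was at least 2.37-fold higher on fibronectin, with 1162 on fibronectin and 459 in suspension. Adam10, the protease that clips ephrins from the cell surface after EphA binding, was 1.84-fold higher (2420 on fibronectin, 1314 in suspension) and 2.40-fold higher in its second probe set. Mmp14, a membrane metalloprotease that cuts EphA2, was 1.63-fold higher, with 16744 on fibronectin and 10300 in suspension. Dvl1, a binding partner in the same list, was 1.92-fold lower, with 3187 on fibronectin and 6119 in suspension. Cldn4, a claudin reported to bind ephrins, was at least 2.88-fold lower, with 203 on fibronectin and 1412 in suspension. The signals of Psen2 and Cldn4 lay below the 95th percentiles of the antisense controls on both arrays, so the size of their ratios is uncertain.

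**Figure D4:**
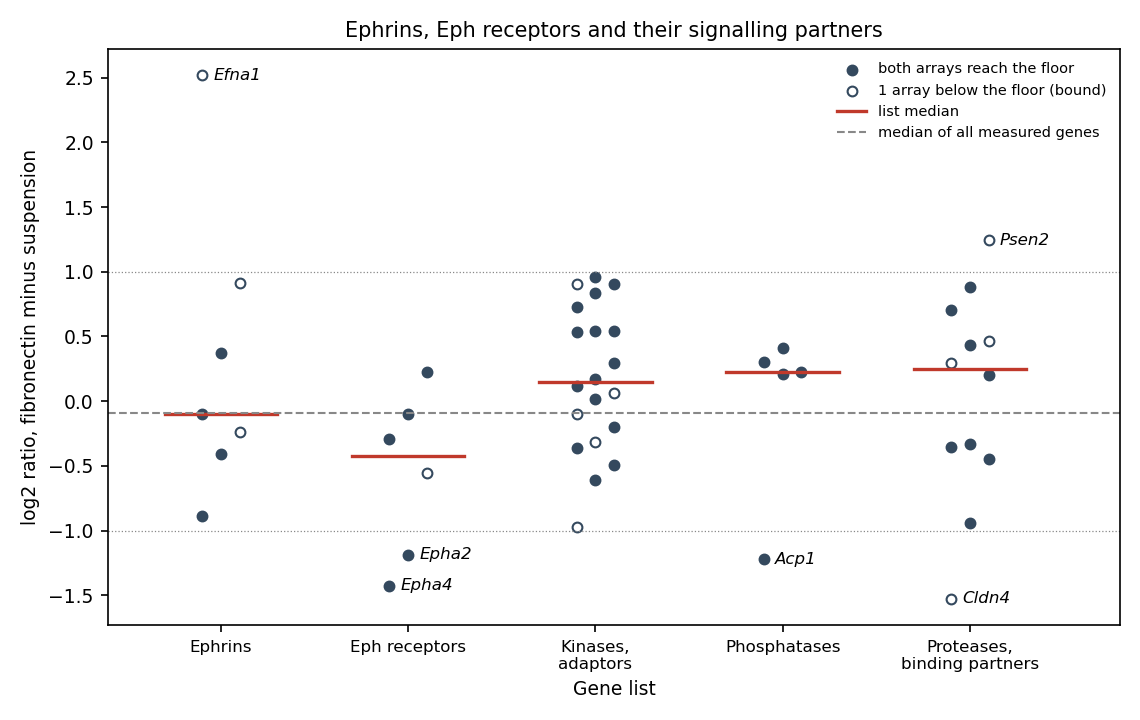
Log2 ratio (fibronectin minus suspension) of each measured gene of the ephrins, the Eph receptors and 3 partner lists. Filled points reached the floor in both arrays and open points are bounds. Red bars are list medians, the dashed line is the median of all measured genes (-0.09) and the dotted lines mark 2-fold. Genes past 2-fold are named, 1 higher (Psen2) and 2 lower (Acp1 and Cldn4) among the partners shown.

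The cells were checked against marker lists. Of 12 fibroblast markers, 9 lay above the 95th percentile of the antisense controls on both arrays, among them Col1a1, with signals of 68592 on fibronectin and 45605 in suspension. Thy1 lay below the floor on both arrays, and the probe set of Vim, with 686 on fibronectin and 1421 in suspension, lay within the range of the antisense controls. Summed over 10 endothelial markers, which matter here as Efnb2 and Efna1 are also endothelial genes, the signal was 4656 on fibronectin and 8754 in suspension, of which Eng gave 2428 on fibronectin and 5167 in suspension. Of these markers 4 reached the floor on at least 1 array. Besides Eng they were Emcn, with 171 on fibronectin and 871 in suspension, Pecam1, with 205 on fibronectin and 725 in suspension, and Tek, with 361 on fibronectin and 526 in suspension. The other 6, Cdh5, Kdr, Tie1, Flt1, Icam2 and Vwf, lay below the floor on both arrays. Of 11 neural, 10 epithelial and 9 macrophage markers, 2, 0 and 1 lay above the antisense controls on fibronectin and 3, 1 and 3 in suspension. Their part in the ratios was not tested. In RNA from a whole culture, a change in the number of cells that express a gene and a change per cell cannot be told apart.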

How the data were processed

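Total RNA of both groups was hybridised to 1 MG_U74Av2 array each. The deposited values are intensities, 1 linear signal per probe set, made by the authors; the submitters' processing notes name MAS5. The sources used here give no version, scaling target or detection calls. The other deposited files hold instrument settings, of which 4 of 32 differed, and no expression values.

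Each array was scaled to its 2% trimmed mean over 12422 probe sets that are not controls (1486 on fibronectin, 1489 in suspension before scaling). The floor of 490 is the mean of both 40th percentiles. Of several probe sets of a gene, that with the highest mean log2 signal after flooring was used. Of 12488 probe sets, 10833 had 1 gene symbol, control probe sets aside, 396 had several and 1237 were not listed. By gene ID, 10817 matched RefSeq.

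With 1 array per group no test was made, and the number of arrays limits the precision. The members and gene lists were chosen with earlier results of these data known. Named were all members and other family genes, genes of the 3 partner lists described that were at least 2-fold different, the genes next to the highest and lowest member in the order of ratios, up to 4 fibroblast markers, and, by hand after values were seen, partners with roles close to Eph signalling, and the genes next to Efna1. The genes of 1 partner list are not reported here, though they are in the counts over all partners. Ratios were also computed under 12 alternatives of scaling, floor and probe set and at 1.5-fold and 3-fold. Scripts were tested on simulated data in which only bright probe sets changed and noise was low. That test does not cover ratios near the floor. The scripts used Python 3.11.15, numpy 2.4.6, pandas 2.3.3 and statsmodels 0.14.6.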

Additional observations from a re-analysis of the deposited data

How the results depend on the processing

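No paired analysis was possible because each group has 1 array. Of the members, 1 was at least 2-fold higher and 1 lower. Higher were 2 at 1.5-fold, under median scaling, quantile normalization and loess, with the floor at the 20th percentile and with no floor, and 0 with the floor at the antisense controls (a signal of 1858), where 3 members were measured. Lower were 0 at 3-fold, under median scaling, with that floor and with an offset in place of a floor.

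Of the 47 measured partner genes, 3 were higher and 2 lower. The number of partners measured was 48 under median scaling and loess, and 49 under quantile normalization and with the spikes. It was 56 with the 20th percentile floor, 57 with no floor, 34 with the 60th percentile floor and 23 with the antisense floor. With the dimmest probe set of each gene it was 40. Counts over all measured genes follow below. Higher were 11 at 1.5-fold, 9 under median scaling, 7 under quantile normalization, loess, the 20th percentile floor and no floor, 1 with the 60th percentile floor and the antisense floor, and 0 at 3-fold, with scaling to the 9 spikes and with the offset. Lower were 9 at 1.5-fold and with the 20th percentile floor, 10 with the spikes, 11 with no floor, 1 with the 60th percentile floor, the offset and the mean over probe sets, and 0 at 3-fold and with the antisense floor.

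Of all 6385 measured genes, 370 were higher and 592 lower. The counts were 1014 and 1440 at 1.5-fold, 88 and 120 at 3-fold, 134 and 1409 with the spikes, 817 and 1179 with the 20th percentile floor, 155 and 158 with the 60th, 77 and 34 with the antisense floor and 931 and 1542 with no floor. They were 228 and 403 with the offset, 293 and 445 with the mean over probe sets, and 343 and 505 with the dimmest probe set. The number of genes measured was 6390 under median scaling, 6388 under quantile normalization, 6379 under loess and 6364 with the spikes. It was 7673 with the 20th percentile floor, 4545 with the 60th, 2961 with the antisense floor and 8251 with no floor. With the dimmest probe set it was 5498. The excess of lower genes turned with the scaling: 596 were higher and 405 lower under median scaling, 466 and 448 under quantile normalization and 467 and 441 under loess. Scaling moved the median over all measured genes, on the log2 scale, to 0.11 under median scaling and -0.51 with the spikes. Efna1 stood highest and Epha2 lowest of the members under both. Each of these scalings divides an array by a single constant, so, the floor aside, this order could not change and nothing is read from it. The median of the members ranged from -0.57 with the spikes to 0.23 with the antisense floor. The cause of these shifts was not tested.

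The low signals limit what can be said: of the 7 measured members, only Ephb6 lay above the 95th percentile of the antisense controls on both arrays. This held for its brighter probe set only, as the other lay below that level on fibronectin.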

Other observations

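In the order of ratios and bounds over all 6385 measured genes, Efna1 stood between genes of other functions. Next above it were Tcirg1, a subunit of the lysosomal proton pump, 5.87-fold higher on fibronectin, and Tmem41b, with a log2 ratio of 2.58. Next below it were Vegfa, the main growth factor of blood vessels, at least 5.62-fold higher, and Tbc1d20, 5.12-fold higher with signals of 4074 on fibronectin and 796 in suspension. With 2 arrays, closeness in this order is the only measure of likeness, and it says nothing of shared control. Next to Epha2, at a log2 ratio of -1.19, stood Nat1, Abcc8, Sos1 and Il3, each at least 2.27-fold or 2.28-fold lower and each below the floor on fibronectin.

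Among the fibroblast markers, Pdgfrb, a growth factor receptor of fibroblasts, was 3.35-fold higher on fibronectin, with signals of 7795 on fibronectin and 2327 in suspension. Its probe set is the only one named for it.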
